A study of Mus musculus with 18 samples.

Results

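The 9 genes described here encode transcription factors that set up and maintain hepatocyte identity: Hnf4a, Foxa1, Foxa2, Foxa3, Cebpa, Cebpb, Onecut1, Nr1h4 and Ppara. They were chosen by name, with earlier results of these data known. Gene spans were those of RefSeq on GRCm38.p6, the assembly behind mm10. A gene was counted when the summit of a deposited MYC peak lay inside its span or within 5 kb of either end. All 9 were found among 21887 protein-coding genes placed on the chromosomes used. A MYC peak was present at 5 of them (55.6%) in at least 1 of 9 libraries, compared with 22.1% of all protein-coding genes, and at 4 of them (44.4%) in at least 2 libraries, compared with 12.4%.

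Liver transcription factors of this kind bind one another's regulatory sequences and form a network that keeps hepatocyte genes active. MYC, with its partner MAX, binds E-box sequences, mostly in open chromatin at promoters, and is known for driving growth genes rather than cell identity genes. In liver, MYC overexpression leads to tumours whose cells are often less differentiated than hepatocytes.

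MYC binding was mapped by ChIP-seq, the sequencing of DNA bound by an antibody to MYC, in liver tumours that had been collected from FVB mice at death. Homo mice carried Alb-cre and TRE-MYC on LAP-tta-Arid1afl/fl and were about 100 days old. Het mice carried Alb-cre and TRE-MYC on LAP-tta-Arid1afl/+ and were about 70 days old, and WT mice carried TRE-MYC on LAP-tta-Arid1aflfl and were about 55 days old. All mice thus carried the tetracycline-controlled activator (tTA) behind the LAP promoter and a MYC transgene behind the TRE promoter, which is switched on when doxycycline is withdrawn. Arid1a, which encodes a DNA-binding subunit of SWI/SNF chromatin remodellers, was floxed in every group, and the Alb-cre recombinase, driven by the albumin promoter in liver parenchymal cells, was present in the Homo and Het groups and absent from the WT group. Age therefore cannot be told apart from the Arid1a genotype in any pair, nor Cre from the genotype in the pairs with WT. LAP (liver activator protein) is another name for the product of Cebpb, so regulatory sequence of Cebpb drives the activator in every mouse. The 3 MYC libraries of each genotype each had their own peak list, and 9 input samples served the study as controls.

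The lists differed in length, with 112, 51 and 303 peaks in Homo replicates 1, 2 and 3, 1713, 1869 and 378 in Het, and 92, 1567 and 4291 in WT. Depth, read from the peak values, was 7.80 to 15.2 MYC reads per kb and 3.37 to 6.27 input reads per kb. Homo replicate 2 and WT replicate 1 stood apart, with 17.6% and 15.2% of summits within 1 kb of a protein-coding gene end against 43.9% to 64.4% in the other 7 libraries. Neither carried a peak at any of the 9 genes, so every count of genes with a peak is the same without them. Peaks give no RNA level, so neither the tissue label nor the loss of Arid1a could be checked from them. Of 5 hepatocyte marker genes, Apoa1 alone carried a peak, in WT replicate 3 (20.0%, compared with 20.6% of all protein-coding genes there). The 13 markers of cholangiocytes, macrophages, endothelial and stellate cells carried none, where 22.1% of all protein-coding genes had a peak in at least 1 library. In bulk tissue, fewer cells with MYC at a site and less MYC per cell cannot be told apart.

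The 9 genes split into a group with MYC peaks (Hnf4a, Cebpb, Ppara, Cebpa and Foxa3) and a group without any (Foxa1, Foxa2, Onecut1 and Nr1h4). There were 19 peaks at these genes in 6 of 9 libraries, and the fold over local background that the authors deposited ran from 2.22 to 9.77 with a median of 5.78. Genes with a peak numbered 0, 0 and 1 in Homo replicates 1, 2 and 3 (0.599%, 0.201% and 1.54% of all protein-coding genes). They numbered 3, 4 and 1 in Het (8.85%, 9.65% and 1.6%), and 0, 1 and 5 in WT (0.274%, 7.92% and 20.6%). Per genotype there was 1 gene with a peak in any Homo library, 4 in any Het library and 5 in any WT library, and the shares of all protein-coding genes under the same rule were 1.75%, 12.3% and 21.1%. WT replicate 3, the longest list, held all 5 genes, and without it the WT count fell to 1 (Cebpb).

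**Figure D1:**
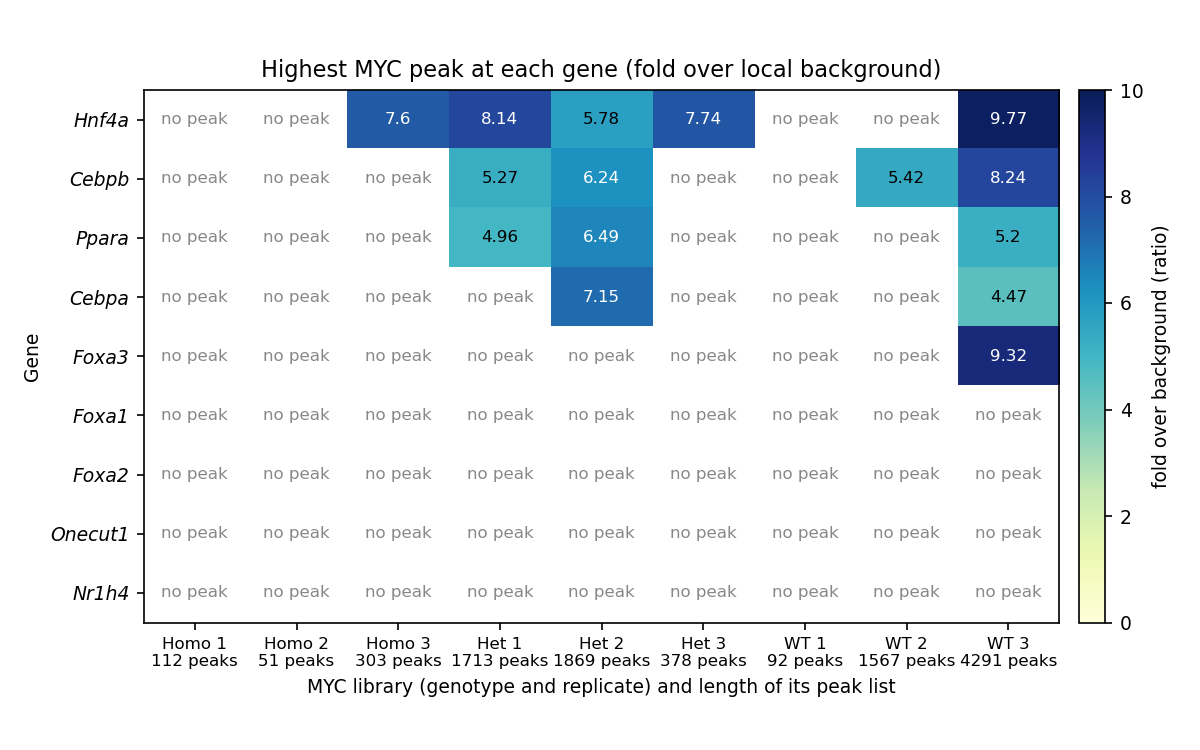
Highest MYC peak at each of the 9 genes (rows) in each library (columns: Homo, Het and WT, with list lengths), coloured by the authors' fold over local background (ratio). Hnf4a had a peak in 5 libraries including Homo replicate 3, and 4 genes had no peak in any library.

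Hnf4a, a nuclear receptor at the centre of the hepatocyte network, carried its MYC peak in more libraries than any other of the 9 genes, and none of the other 8 had a peak in a Homo tumour. The fold was 7.60 in Homo replicate 3, it was 8.14, 5.78 and 7.74 in Het replicates 1, 2 and 3, and it was 9.77 in WT replicate 3. Homo replicates 1 and 2 and WT replicates 1 and 2 listed no peak there. All Het libraries thus had the peak, whereas Homo and WT had it in 1 of 3 each. In Het replicate 2 its local background was 5.54 times the lowest of the list, and without peaks at 5 times or more, a limit chosen after seeing the data, Hnf4a had a peak in 4 libraries, 2 of them Het. The summit held 78 reads in Homo replicate 3, with 7.15 expected from the local background. In Het it held 86, 60 and 48 reads, with 7.50, 8.60 and 4.32 expected, and in WT replicate 3 it held 75, with 5.91 expected. The deposited fold is smaller than the ratio of these reads because 1 is added to the scaled reads and to the background. By −log10 p the peak ranked 97 of 303 in Homo replicate 3. In Het replicates 1, 2 and 3 it ranked 373 of 1713, 813 of 1869 and 109 of 378, and in WT replicate 3 it ranked 408 of 4291. It stood in the upper 43.4% of each of these lists.

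The 5 summits at Hnf4a lay within 43 bp of one another, between 163540790 and 163540833 on chromosome 2 (mm10), inside the gene span of 163506811 to 163572907. RefSeq gives transcript starts at 163506857 and 163547155, which in their order correspond to the promoters known as P2 and P1, P1 being the promoter of the adult liver. The summits lay 6.32 to 6.37 kb before the downstream start and about 34.0 kb after the upstream start, so at neither promoter. A hepatocyte enhancer upstream of the P1 promoter is known from human HNF4A. The site also falls in the span of the antisense non-coding gene Hnf4aos (163493804 to 163541721), at 888 to 931 bp from its upper end. Hnf4a runs on the plus strand, so that end is the start side of its antisense gene. Since ChIP reads carry no strand of origin, the genes cannot be separated there. No sequence of this site was used here.

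The two-sided exact permutation test of presence gave p = 0.4 for Het (3 of 3 libraries) against WT (1 of 3), with an adjusted p of 1 over 4831 genes with a peak. For Homo (1 of 3) against Het (3 of 3) the same exact test gave p = 0.4, with an adjusted p of 0.928 over 2697 genes, and Homo and WT had the peak in 1 of 3 libraries each. With 3 libraries against 3 such a test cannot go below 0.1. Each listed peak was recomputed by scaling its reads and background to the depth of the shallowest input, without calling peaks anew. With a −log10 p of at least 10 asked for, the Hnf4a peak passed in all 5 libraries. In total, 10 of the 19 peaks at the 9 genes passed.

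The C/EBP genes encode leucine zipper factors, of which C/EBPα promotes hepatocyte differentiation and restrains proliferation, and C/EBPβ acts in the acute phase response and in regeneration. Cebpb carried a peak in 0 Homo, 2 Het and 2 WT libraries. The summit common to these 4 libraries lay in the gene body, 1135 to 1185 bp after the transcript start at 167688915 (chromosome 2, span 167688915 to 167690432). The fold was 5.27 and 6.24 in Het replicates 1 and 2, and 5.42 and 8.24 in WT replicates 2 and 3. Reads at this summit numbered 67 and 46 in Het, with 9.89 and 5.56 expected, and 59 and 64 in WT, with 9.09 and 6.04 expected. The values of Het and WT overlapped. It ranked at place 1187 (of 1713) and 1006 (of 1869) in Het replicates 1 and 2. In WT replicate 2 it ranked at place 867 (of 1567) and in WT replicate 3 at 791 (of 4291), the one of the 4 lists where it stood in the upper 18.4%. An end of the non-coding gene A530013C23Rik lies within 1 kb of this summit.

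WT replicate 3 had further summits at Cebpb, 1118 bp before and 10 bp after the transcript start, with the lowest folds of the 19 peaks (2.22 and 2.51). These did not come from few MYC reads: the summits held 116 and 82 reads, more than the 64 reads at the gene-body summit of the same library. The local background was high instead, at 26 and 16 input reads, which is 23.9 and 14.7 times the lowest background of the list. At the gene-body summit, just over 1 kb further on, the background was 2.81 times the lowest in WT replicate 3, and it was 3.34, 3.58 and 3.62 times the lowest in Het replicates 1 and 2 and WT replicate 2. Of the 4291 peaks of WT replicate 3, 4 (0.0932%) had a background at least as high as the upstream summit. The other 3 lay near Gm10222 and Gm10925, near Cwc22 and near Gm10060, genes named here after their values were seen. Regulatory sequence of Cebpb is present in the LAP-tta transgene as well as at the native gene. The peak lists do not show which of these a read came from. Whether transgene copies added to this background was not tested, and the origin and length of the transgene's promoter are not given in the sources used here. The background is known only under listed peaks, so the 8 libraries without a summit at the Cebpb start give no value.

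**Figure D2:**
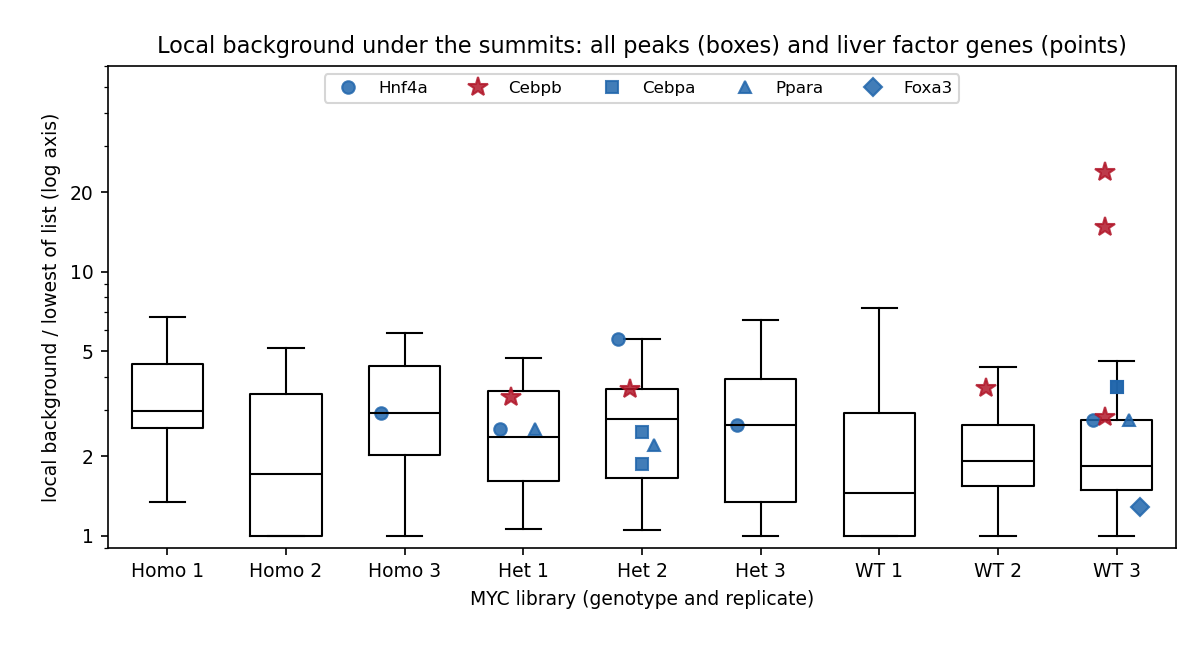
Local background under MYC summits divided by the lowest background of the same list (log axis), for all peaks of each library (boxes: quartiles with the median, whiskers from the 5th to the 95th percentile) and for the peaks at the liver factor genes (points). The Cebpb summits before and at the start in WT replicate 3 stand at 23.9 and 14.7, whereas the other points lie between 1.28 and 5.54.

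Cebpa had peaks in 0 Homo, 1 Het and 1 WT library. A summit 1238 bp before the start in Het replicate 2 (fold 7.15, 34 reads with 2.91 expected) matched a summit 1253 bp before it in WT replicate 3 (fold 4.06, 38 reads with 7.88 expected). At the start itself the summit lay 28 bp before it in Het replicate 2 (fold 5.53, 31 reads with 3.85 expected) and 231 bp after it in WT replicate 3 (fold 4.47, 42 reads with 7.88 expected). The peak at the start was 286 bp long in Het replicate 2 and 802 bp long in WT replicate 3. All 4 peaks were weak for their lists, at 64.2% to 90.2% down the ranking. The gene lies on chromosome 7 from 35119293 to 35121928.

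Ppara encodes the receptor that turns on fatty acid oxidation and ketone production in fasting. It carried a peak at its promoter in 0 Homo, 2 Het and 1 WT library, with a fold of 4.96 and 6.49 in Het replicates 1 and 2 and 5.20 in WT replicate 3. Reads at the summit numbered 51 and 34 in Het, with 7.50 and 3.42 expected, and 39 in WT, with 5.91 expected. The summits lay 298, 230 and 240 bp before the start at 85735776 (chromosome 15, span 85734910 to 85806851), within 68 bp of one another. These peaks too ranked low, at place 1541 (of 1713) and 1348 (of 1869) in Het and at place 3259 (of 4291) in WT.

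Foxa3 belongs to the forkhead pioneer factors that open liver chromatin. It had a single peak, in WT replicate 3, with a fold of 9.32 and 42 reads where 2.75 were expected, and it ranked 1146 of 4291. The summit lay at 19012474 on chromosome 7, 809 bp beyond the 3′ end of the gene and 11065 bp from its transcript start at 19023539. The promoter itself had no summit. The nearest summit left out by the window was also at Foxa3, 8.70 kb outside the span in the same library (fold 4.69), at the gene Irf2bp1.

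**Figure D3:**
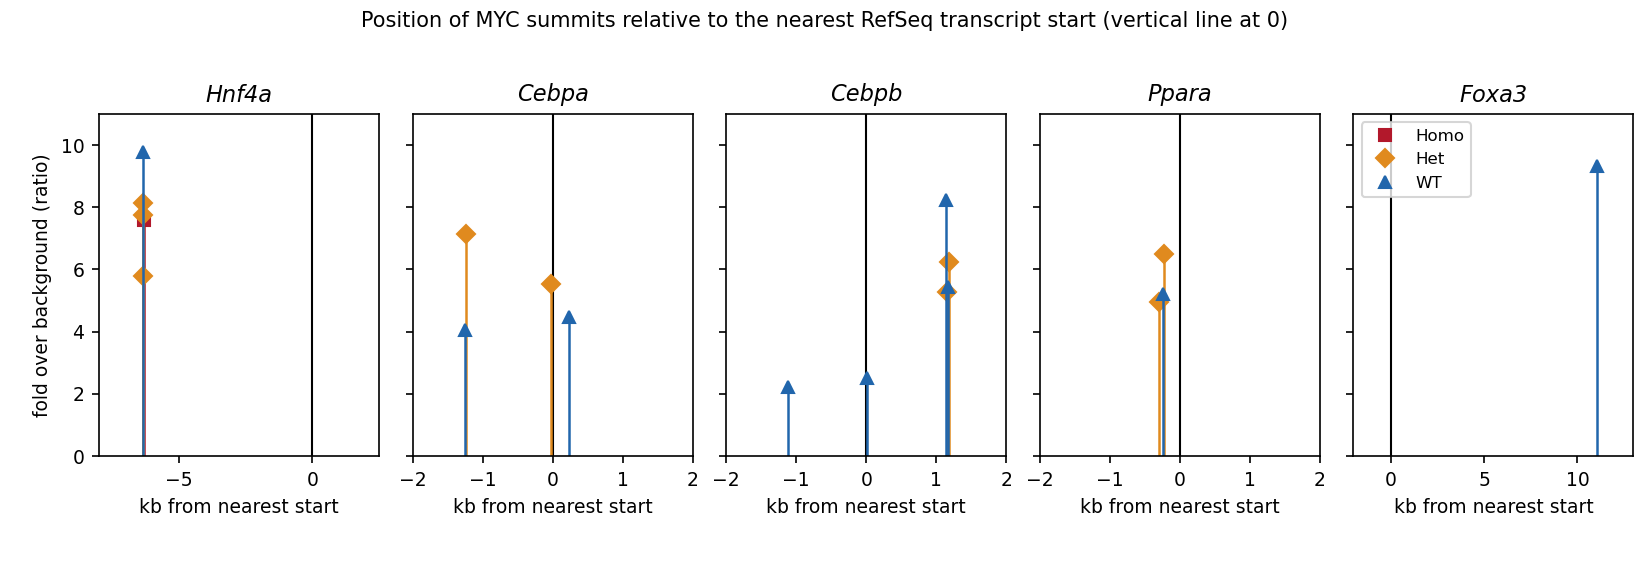
Position of each MYC summit (horizontal axis, kb from the nearest RefSeq transcript start, in the direction of transcription) and the authors' fold over background (vertical axis, ratio) at the 5 genes with a peak, coloured by genotype. Hnf4a summits stack 6.32 to 6.37 kb before the start and Ppara summits lie close to the start, while the Foxa3 summit lies beyond the far end of the gene.

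Foxa1 and Foxa2, the other forkhead factors, Onecut1 (HNF6), which acts in bile duct and hepatocyte development, and Nr1h4, the bile acid receptor FXR, had no summit in their windows in any library. The nearest summit lay 310058 bp from Foxa1 and 627481 bp from Nr1h4. For Onecut1 it lay 12.7 kb away and for Foxa2 20.7 kb away, each in WT replicate 3 (folds 8.91 and 10.2). Absence from a list means that no peak passed the authors' threshold, and the reads at these genes are not known.

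Promoter sequences are shown for the 3 genes with a summit in their promoter window and for Onecut1, whose window held the canonical E-box but no summit. Each run gives the 250 bases before the transcript start, 5′ to 3′ in the direction of transcription, from RefSeq on GRCm38.p6. The Cebpb summit in its window lay 10 bp after the start and so outside the run shown. The source is the C57BL/6J reference and not the FVB strain of the mice. Capitals mark matches, on either strand, to any of 3 motifs searched separately. They were the canonical E-box CACGTG, which reads the same on either strand, the variant CACGCG, which reads CGCGTG on the other strand, and the variant CATGTG, which reads CACATG on the other strand. The positions, all on the plus strand, are chr7:35119043-35119292 for Cebpa, chr2:167688665-167688914 for Cebpb, chr15:85735526-85735775 for Ppara and chr9:74861671-74861920 for Onecut1.
Cebpa: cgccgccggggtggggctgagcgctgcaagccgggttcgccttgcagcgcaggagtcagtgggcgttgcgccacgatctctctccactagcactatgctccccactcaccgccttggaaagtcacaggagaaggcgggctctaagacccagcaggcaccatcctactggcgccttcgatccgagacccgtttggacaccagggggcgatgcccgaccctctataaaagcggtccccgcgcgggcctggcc
Cebpb: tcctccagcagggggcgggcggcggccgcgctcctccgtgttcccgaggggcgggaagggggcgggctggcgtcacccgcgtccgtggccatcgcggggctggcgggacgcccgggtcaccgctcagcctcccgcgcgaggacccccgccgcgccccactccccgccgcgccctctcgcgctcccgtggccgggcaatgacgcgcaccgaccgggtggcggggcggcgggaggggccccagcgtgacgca
Ppara: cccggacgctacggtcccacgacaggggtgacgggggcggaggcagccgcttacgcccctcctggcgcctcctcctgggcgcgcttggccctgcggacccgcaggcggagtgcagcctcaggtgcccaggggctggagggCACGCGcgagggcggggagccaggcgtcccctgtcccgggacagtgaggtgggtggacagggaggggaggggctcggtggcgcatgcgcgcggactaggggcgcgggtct
Onecut1: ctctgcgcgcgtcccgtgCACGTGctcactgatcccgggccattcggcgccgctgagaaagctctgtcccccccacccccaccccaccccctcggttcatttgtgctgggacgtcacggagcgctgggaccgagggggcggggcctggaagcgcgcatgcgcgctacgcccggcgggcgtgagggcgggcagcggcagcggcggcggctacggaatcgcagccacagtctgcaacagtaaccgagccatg

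RefSeq promoter windows of 300 bases (250 before to 50 after a start) gave 12 windows for the 9 genes. Of these, only the Ppara window held a summit in at least 2 libraries. The Cebpa and Cebpb windows held a summit in 1 library each, and the others held none. CACGTG was found in 1 of the 12 (8.33%), compared with 7.15% of all 32851 windows and 35.7% of the 799 windows with a summit in at least 2 libraries. The match was in Onecut1, 232 bases before the start. CACGCG was found in 2 of 12 (16.7%), compared with 9.27% and 49.7%: in Ppara, first base 110 before the start and again in the 50 bases after it, and in Foxa2, where no summit was listed. CATGTG was found in 0 of 12, compared with 14.2% and 16.0%. The Cebpa and Cebpb windows, with 67.3% and 80.7% G and C bases, held none of the 3 motifs, and the Ppara window had 74.7%. The Cebpb summits 1135 to 1185 bp after the start and the Cebpa summits 1238 and 1253 bp before it lie outside these windows. The sequence at those summits was not searched. The median was 66.0% in the windows with a summit in at least 2 libraries and 52.7% in all windows.

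Between genotypes, the 9 genes were compared by a rule and by a test. The rule asked for a peak in at least 2 libraries of a genotype and none of the other. Homo against WT gave 0 genes with the peak in Homo alone (0.0% of all protein-coding genes). It gave 1 of 9 with the peak in WT alone, Cebpb (11.1%, compared with 5.78% of all). Homo against Het gave 0 genes in Homo alone (0.0%) and 2 of 9 in Het alone, Cebpb and Ppara (22.2%, compared with 4.82%). Het against WT gave 0 genes in either direction (0.128% in Het alone and 0.923% in WT alone). By two-sided exact permutation of presence, 0 genes passed in any of the 3 pairs, the lowest p at these genes being 0.4, and no p under 0.05 is possible. Cebpb was in 0 of 3 Homo against 2 of 3 WT libraries (exact permutation p = 0.4, adjusted p = 1 over 4618 genes). Ppara was in 0 of 3 Homo against 2 of 3 Het libraries (exact permutation p = 0.4, adjusted p = 0.928). Input depth was 3.37 to 3.69 reads per kb in Homo, 3.63 to 4.34 in Het and 4.04 to 6.27 in WT. Depth was taken from the lowest background of each list. In Homo replicate 1 (3.69) 2 peaks had that background, compared with 16 to 270 in the other libraries. MYC depth was 8.60 to 12.4 reads per kb in Homo, 7.80 to 15.2 in Het and 11.1 to 14.8 in WT. Whether depth set the list lengths was not tested. At the depth of the shallowest input and a −log10 p of at least 10, 0 genes met the rule in any pair. Het replicate 3, whose list of 378 peaks was near in length to that of Homo replicate 3 (303), likewise had the Hnf4a peak and none at the other 8 genes.

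Genes with peaks in exactly the same libraries were then compared by rank. Left out of these counts were the liver factor genes, the wider liver list and the factors of other liver cell types, both given below. Only 2 other protein-coding genes had a peak in exactly the 5 libraries of Hnf4a: Caprin1 and Nat10, which overlap each other elsewhere on chromosome 2. Both had a mean difference from Hnf4a of 17.3 percentage points in rank within a list. The 4 libraries of Cebpb, which have the 4 longest lists, were those of 567 genes, closest in rank being Adat3 and Scamp4 (3.49 points, overlapping genes) and Sarm1 (3.75 points). The 3 libraries of Ppara were those of 294 genes, closest in rank being Eif4e (3.69 points), H6pd (4.28 points) and Vdac1 (4.41 points). Among the genes left out, Esrra, Mlxipl and Ppargc1a had peaks in exactly the 4 libraries of Cebpb. Srebf2 and Xbp1 had peaks in exactly the 3 libraries of Ppara.

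A wider list of 32 liver transcription factors, nuclear receptors and coregulators, also chosen with earlier results known, was counted in the same way. A peak in at least 1 library was present at 13 of 32 (40.6%, compared with 22.1% of all genes) and in at least 2 libraries at 12 of 32 (37.5%, compared with 12.4%). In any Homo library there were 2 of 32 (6.25%, compared with 1.75%), in any Het library 12 (37.5%, compared with 12.3%) and in any WT library 13 (40.6%, compared with 21.1%). The median span was 25293 bp in this list, 10257 bp for the 9 genes and 17169 bp for all protein-coding genes, and a longer span gives more room for a summit.

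Dbp, a factor of the circadian output, had the most libraries of that list, 1 Homo, 3 Het and 2 WT, with folds of 3.82 to 14.0 and, in all 6 of these libraries, a summit up to 2.5 kb after the start. Nfil3, the repressor that competes with Dbp for the same sites, had a peak in 1 Homo, 1 Het and 2 WT libraries. Klf15, a regulator of gluconeogenesis, had one in 0 Homo, 3 Het and 2 WT libraries, with folds of 5.52 to 11.6. Esrra, Mlxipl and Ppargc1a, regulators of mitochondrial, carbohydrate-responsive and fasting genes, each had a peak in 0 Homo, 2 Het and 2 WT libraries. Nr1i2 (the xenobiotic receptor PXR) had peaks in 1 Het and 2 WT libraries. Srebf2 (cholesterol synthesis) and Xbp1 (secretory capacity) had them in 2 Het and 1 WT, and Atf5, a stress-response factor, in 1 Het and 1 WT. Some of these summits are shared with another gene end: that of Atf5 with Nup62 and Il4i1b, that of Esrra with Catsperz, and the upstream summit of Dbp with Car11. For scale, Ncl, the gene of the nucleolar protein nucleolin, carried a peak in all 9 libraries with folds of 8.92 to 25.5, and in each of the 5 libraries with an Hnf4a peak its fold was higher than that of Hnf4a.

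**Figure D4:**
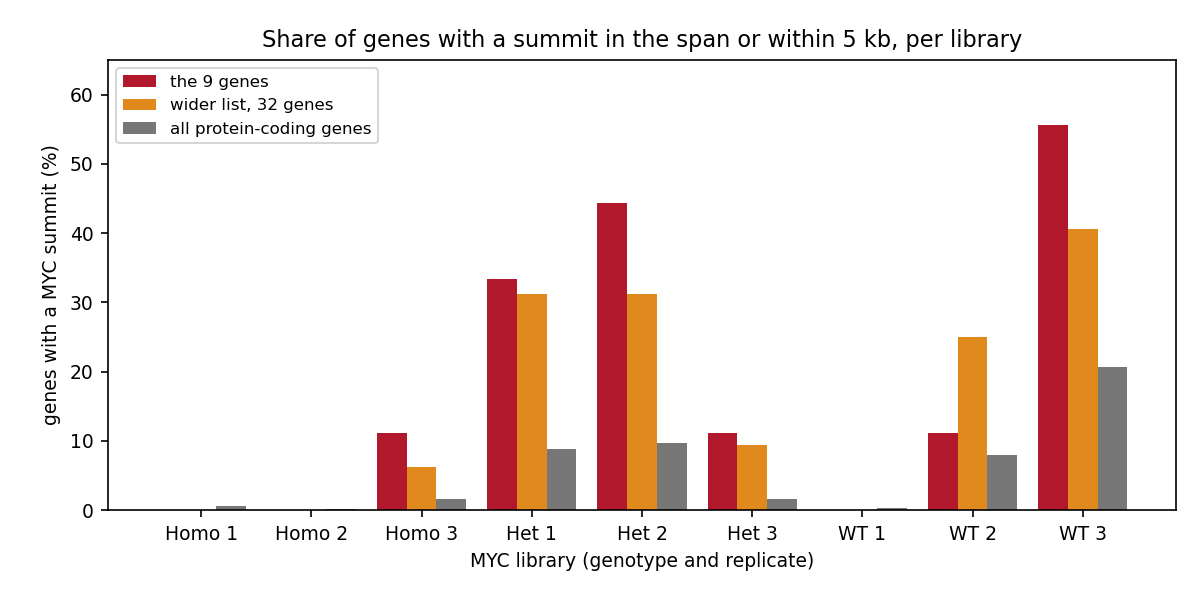
Share of genes with a MYC summit in the span or within 5 kb (vertical axis, %) per library for the 9 genes, the wider list of 32 and all 21887 protein-coding genes. In WT replicate 3 the shares were 55.6%, 40.6% and 20.6%, and Homo replicates 1 and 2 and WT replicate 1 had none of the 9 genes or of the 32.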

How the data were processed

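The deposited files are lists of MYC peaks, 1 per library, aligned with Bowtie2 2.2.3 to mm10 and called with MACS2 2.0.10.20131216, per the submitters' processing notes, which also name Picard and HOMER. The sources used here do not give the peak threshold. Each peak carries, as deposited, the authors' fold over background (a ratio), −log10 p, −log10 q, an integer score (10 times −log10 q, cut to a whole number) and the summit offset. The deposited score and −log10 q were used only for checks and filters. Groups came from the sample titles, and no label says whether replicates were separate animals, so a p-value reflects the spread of these libraries alone, which may be technical.

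Ranks were taken within a list by −log10 p. Summit reads and local background were solved from fold and −log10 p in the form MACS2 uses (scaled reads plus 1 over background plus 1, Poisson upper tail), with 1 whole-number solution for 99.7% of 10376 peaks. The method was tested on simulated data. The lowest background over the shortest peak length gave input depth per kb. Gene spans and transcript starts came from RefSeq tables of GRCm38.p6. Presence of a peak was tested by two-sided exact permutation over libraries, with Benjamini-Hochberg adjustment over all protein-coding genes with a peak in the pair. The 9 genes and the wider lists were chosen with earlier results of these data known. The text names the 9 genes, genes of the wider and other-cell lists with peaks in at least 2 libraries, genes sharing a summit, up to 3 genes closest in pattern, and Ncl; some genes of the wider list are counted but not reported singly here. Analysis used Python 3.11.15, scipy 1.17.1 and Biopython 1.88.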

Additional observations from a re-analysis of the deposited data

How the results depend on the processing

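The count of genes with a peak in at least 1 library (5) was 4 or 5 under every alternative run except equal list lengths. When the 51 best-ranked peaks of each list were used, every count went to 0: genes in at least 1 library, in at least 2 libraries, in Homo, in Het, in WT, in WT and not Homo, in Het and not Homo, and over all pairs together. After thinning to the shallowest input with −log10 p of at least 10, genes in at least 2 libraries went to 2 and genes in WT to 3, and genes in WT and not Homo, in Het and not Homo, and over all pairs went to 0. Under a minimum −log10 q of 5, a minimum fold of 5 or a minimum −log10 p of 10, genes in Het and not Homo numbered 1. With summits counted only within 1 kb of a gene end, Homo had 0 genes, since the Hnf4a site is internal. In all these cases the alternative keeps fewer peaks by construction.

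Leaving out each library in turn gave 4 to 5 genes in at least 1 library, 3 to 4 in at least 2 libraries, 0 to 1 in Homo, 3 to 4 in Het and 1 to 5 in WT. Genes in at least 2 libraries and none of the other genotype ranged from 0 to 2 for Het and not WT, 0 to 1 for WT and not Homo, 0 to 3 for Het and not Homo, and 1 to 4 over all pairs. The libraries behind these changes were Homo replicate 3 (0 genes in Homo and 3 in Het and not Homo without it), Het replicates 1 and 2 (0 genes in Het and not Homo without either), WT replicate 2 (0 in WT and not Homo) and WT replicate 3 (1 gene in WT, 2 in Het and not WT, 0 in WT and not Homo). With the replicate number as a block, 0 comparisons of presence passed the exact permutation test, as without the block (lowest p 0.5, where 0.25 is the smallest possible). Same-numbered libraries did not deviate together (correlations of -0.196 to 0.068 over 2709 genes), so the numbers were not taken as pairs. Differences in the share of libraries with a peak that were 0 in the full data took either sign across alternatives. Homo minus WT at Hnf4a was 0.333 without WT replicate 3 and -0.333 without Homo replicate 3. Het minus WT at Cebpa was 0.333 with a minimum fold of 5 and -0.333 without Het replicate 2, and at Cebpb it was 0.333 without Het replicate 3 and -0.333 without WT replicate 1. Differences other than 0 did not change sign. Of the alternatives chosen after seeing the data, leaving out WT replicate 1 and Homo replicate 2 together changed no count of genes. Leaving out peaks with a background of 5 times the lowest or more changed no count of genes either, but Hnf4a was then left with 4 libraries, without Het replicate 2, and Het minus WT there was 0.333 (exact permutation p = 1). Absence from a Homo list does not show that MYC was absent.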

Other observations

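The surroundings of Hnf4a carried MYC peaks in a different set of libraries from the gene itself. A summit at Fitm2, a lipid droplet gene 34.2 to 34.3 kb before the span, and a summit at the pseudogene Gm18590, 13.6 to 13.7 kb after it, were each present in Het replicates 1 and 2 and WT replicates 2 and 3, with folds of 4.31 to 12.9 and 6.54 to 7.75. WT replicate 2 thus listed both flanking sites and not the internal one, whereas Homo replicate 3 and Het replicate 3 listed the internal one and neither flank. Beyond Ppara, a summit at Pkdrej, 14.8 kb after the span, was present in the same 4 libraries as the Hnf4a flanks (folds 7.10 to 10.2).

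Of 12 transcription factors of other liver cell types, Runx1, a factor of blood cells, had a peak in 2 Homo, 3 Het and 3 WT libraries, 51.6 to 51.7 kb after its nearest transcript start, with folds of 6.41 to 23.2. Erg, an endothelial factor, had one in WT replicate 2 (fold 8.65) and is named after its value was seen. The other 10 had none. A peak in at least 1 library was thus present at 2 of 12 (16.7%, compared with 22.1% of all protein-coding genes). In at least 2 libraries it was present at 1 of 12 (8.33%, compared with 12.4%). Peaks do not show which cells the reads came from.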
